A study of Mus musculus with 6 samples.

Results

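A set of 9 genes of the primitive and definitive endoderm (Gata4, Gata6, Sox17, Sox7, Dab2, Foxa2, Hnf4a, Afp and Amn) was followed in mouse embryonic stem (ES) cells with and without a functional copy of Dppa4, which encodes a chromatin-associated protein of pluripotent cells. The members are all probe sets whose platform gene symbol is exactly one of these 9 names, which gave 24 of the 45037 probe sets tested and 9 of the 18193 genes, and none of the 24 was shared with another gene. The parental group was the Dppa4 hemizygous line CI#84.2 (3 arrays), and the knockout group was the line CI#243.12 (3 arrays). The parental cells thus carried a single intact copy of the gene, and each group was 1 cell line, so a difference between lines and an effect of the genotype cannot be told apart. Both lines were cultured on mouse embryonic fibroblast feeder cells, whose RNA was part of every sample. No wild-type line was analysed here. The title of the study concerns whether ES cells keep their identity without Dppa4, and the endoderm genes bear on one way of leaving it.

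The primitive endoderm is an epithelium that forms beside the pluripotent epiblast, and it gives rise to the visceral and parietal endoderm of the yolk sacs. The zinc finger factors Gata6 and Gata4 and the HMG box factors Sox17 and Sox7 are its regulators, and forced expression of the GATA factors is known to turn ES cells into endoderm-like cells. The definitive endoderm arises later, during gastrulation, and shares Sox17 and Foxa2 with the extraembryonic lineage. Dab2 and Amn serve endocytosis in the visceral endoderm, where Hnf4a controls genes of secreted and transport proteins such as Afp.

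Promoter windows from RefSeq (GRCm38.p6) ran from 250 bases before to 50 bases after an annotated start. Windows of 5 of the 9 genes were searched as member windows, 9 in all. None was given for Gata4, Sox17 and Sox7, and any window of Gata6 was left out. The counts over member windows therefore do not cover these genes. The windows of Afp and of the upstream start of Hnf4a are shown because Afp is a classical marker of visceral endoderm, because Hnf4a is the hepatic nuclear receptor among the members, and because both hold a palindrome of the HNF1 homeobox factors, searched as the letters GTTANT, then 2 bases of any kind, then TTAAC. Capitals mark the palindrome.
Afp, chr5:90490464-90490763, plus strand: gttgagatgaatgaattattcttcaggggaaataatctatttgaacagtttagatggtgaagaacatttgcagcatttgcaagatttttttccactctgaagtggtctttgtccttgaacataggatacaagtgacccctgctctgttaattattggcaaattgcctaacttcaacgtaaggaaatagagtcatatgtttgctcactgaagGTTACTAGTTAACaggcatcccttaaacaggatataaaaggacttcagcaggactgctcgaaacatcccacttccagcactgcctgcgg
Hnf4a, chr2:163506607-163506906, plus strand: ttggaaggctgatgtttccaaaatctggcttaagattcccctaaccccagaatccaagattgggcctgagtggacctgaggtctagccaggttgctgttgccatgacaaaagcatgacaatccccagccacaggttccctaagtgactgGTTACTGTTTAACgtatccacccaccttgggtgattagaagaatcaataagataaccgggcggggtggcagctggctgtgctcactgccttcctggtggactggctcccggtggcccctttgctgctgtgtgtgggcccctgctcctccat
The palindrome began at position -39 from the annotated start in Afp and at position -101 in Hnf4a, and it was searched on both strands. It was present in 2 of the 9 member windows and in 31 of all 32851 windows (0.0944%). The motif was chosen after the letters had been read, so these counts describe the windows only. The other motifs were searched on both strands as well. The GATA core AGATAA, found in 11.2% of all windows, was present in 1 window each of Dab2 (on the opposite strand), Foxa2 and Hnf4a. TATAAA (13.6% of all windows) was present in Afp and, on the opposite strand, in 1 window of Foxa2. The forkhead core TGTTTAC (3.65%) was present in none of the 9. TATAAA and the palindrome did not overlap in Afp. The levels of Afp and Hnf4a follow with the other members.

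The values are RMA (robust multi-array average) expression values on the log2 scale. Because RMA forces a common distribution on the arrays, a change common to most transcripts would be hidden. Array medians lay between 4.21 and 4.25, and pairs of arrays correlated between 0.994 and 0.997 across probe sets. Background was set at 3.78, a level that 95% of 80 olfactory and vomeronasal receptor probe sets, taken as silent in ES cells, did not exceed on average. Dppa4 (1429597_at) read 10.30, 10.35 and 10.45 in the parental and 8.68, 8.84 and 8.68 in the knockout samples (log2 change -1.63, SE 0.08, limma adjusted p = 0.000112). Whether this probe set overlaps the deleted exons could not be established, so it checks the labels by its direction only. Of the fixed pluripotency markers, 12 of 12 lay above background, as did 20 of 20 feeder fibroblast markers. The feeder marker mean ranged from 10.30 to 10.37 in parental and from 10.39 to 10.56 in knockout samples, with the highest value in knockout replicate 1. The groups did not overlap in this mean. A fit with it as a covariate therefore cannot fully separate feeder content from group, and its estimates are less precise. Separate cultures are not stated for the replicates, and p-values therefore cover the spread of these 6 samples alone, which could be technical. In bulk samples, a difference in the share of cells of a type and a difference in RNA per cell cannot be told apart.

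None of the 9 endoderm genes passed the test between knockout and parental cells. Of 24 member probe sets, 0 had an adjusted p under 0.05 (limma, Benjamini-Hochberg over all 45037 probe sets), where 0.402% of all probe sets did. At an unadjusted p under 0.05 there was 1 member, against 9.49% of all probe sets. The groups did not overlap for 1 of the 24, against 14.2% of all probe sets. 12 members were higher and 12 lower in knockout cells, with a median log2 difference of -0.01, and the median over all probe sets was 0. The differences ran from -0.27 (Amn) to 0.25 (Dab2), and the lowest adjusted p was 0.483. Over the 10 member probe sets above background, the 95% confidence intervals reached from 0.653-fold to 1.75-fold of the parental level, and both extremes came from probe sets of Sox17 and Foxa2. The interval was narrower for others, such as 0.855-fold to 1.14-fold for 1423805_at of Dab2.

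The endoderm genes were weakly detected as a set. Of the 24 member probe sets 10 had a group mean above background, against 59.5% of all probe sets. Dab2 had 3 of 4 probe sets above background and Hnf4a 2 of 4. Gata6 (1 of 3), Sox17 (1 of 2), Sox7 (1 of 2), Foxa2 (1 of 1) and Afp (1 of 5) had a single one each, and Gata4 (0 of 2) and Amn (0 of 1) had none. With the 99th percentile of the receptor probe sets as the level (4.90), 5 probe sets were above it, all of them of Dab2 and Hnf4a. The level of a probe set not above background has only an upper bound, so a difference there says little about the transcript.

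**Figure D1:**
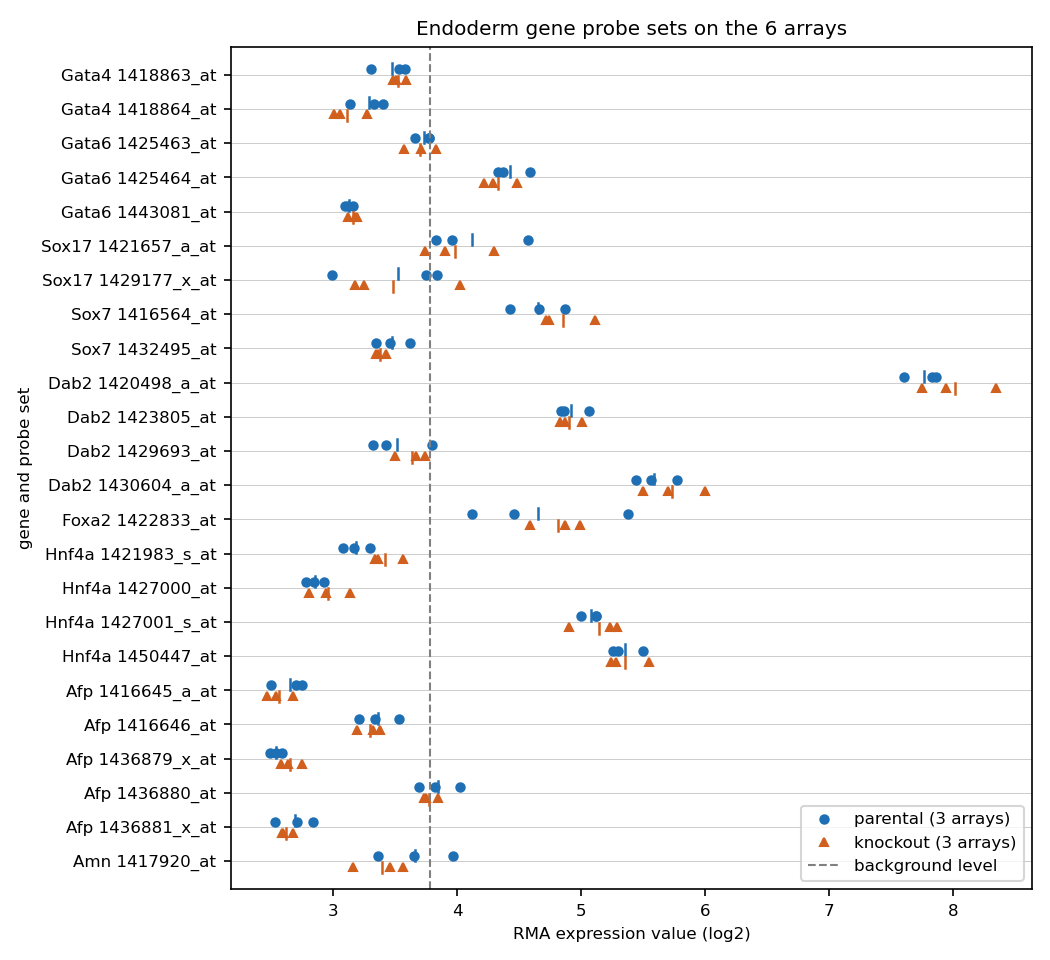
RMA value (log2, horizontal axis) of each of the 24 probe sets of the 9 endoderm genes on the 3 parental arrays (circles) and 3 knockout arrays (triangles); short vertical bars are group means and the dashed line is the background level of 3.78. The groups lie over each other for every probe set except 1421983_s_at of Hnf4a, and the values of Dab2 1420498_a_at, 7.60 to 8.34, lie farthest above the line.

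Gata6, the factor that starts the primitive endoderm programme, was near the background level. Its probe set 1425464_at read 4.37, 4.59 and 4.33 in parental and 4.48, 4.29 and 4.22 in knockout samples. The values of the groups were interleaved, and all 6 lay above background. The log2 difference was -0.10 (SE 0.10, 95% interval -0.33 to 0.13, limma adjusted p = 0.827). The other Gata6 probe sets, 1425463_at and 1443081_at, were not above background, with differences of -0.03 and 0.04. Gata4, which acts after Gata6, was not above background on either probe set. On 1418863_at it read 3.31, 3.53 and 3.58 in parental and 3.51, 3.59 and 3.48 in knockout samples, and on 1418864_at 3.14, 3.40 and 3.33 against 3.01, 3.06 and 3.27. No array of either group exceeded the background level for Gata4.

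The SOX factors of the endoderm gave the same picture of overlap, with a wide spread for Sox17. Sox17 (1421657_a_at) read 3.96, 4.57 and 3.83 in parental and 3.74, 3.90 and 4.30 in knockout samples. Parental replicate 2 and knockout replicate 3 were the high arrays, and the groups overlapped. The log2 difference was -0.14 (SE 0.21, 95% interval -0.61 to 0.33, limma adjusted p = 0.888). The other probe set of Sox17, 1429177_x_at, read 3.75, 3.84 and 2.99 against 3.25, 3.18 and 4.02, again highest in parental replicate 2 and knockout replicate 3, although its group means were not above background. Sox7 (1416564_at), the close relative of Sox17 in the same SOX subgroup, read 4.87, 4.66 and 4.43 in parental and 5.11, 4.74 and 4.72 in knockout samples. Knockout replicate 1 was highest, and the groups overlapped. The difference of 0.20 (SE 0.14, adjusted p = 0.727) became -0.00401 with the feeder marker mean as a covariate. The second Sox7 probe set, 1432495_at, was not above background and differed by -0.10. Sox7 and Sox17 are also known from endothelial cells, and of 9 endothelial markers 5 were above background: Flt1 (6.63 to 7.17 over the 6 arrays), Tek (4.15 to 6.18), Kdr (4.44 to 4.88), Esam (4.34 to 4.94) and Erg (3.73 to 4.29). The other 4, Cdh5 (3.33 to 3.53), Tie1 (2.98 to 3.39), Emcn (2.73 to 2.96) and Sox18 (3.29 to 3.82), were not. The part of endothelial RNA in the levels of Sox7 and Sox17 was not tested.

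Foxa2, the forkhead factor of definitive endoderm and of the anterior visceral endoderm, had the largest spread between arrays among the members. Its only probe set, 1422833_at, read 4.46, 5.38 and 4.12 in parental and 4.59, 4.87 and 4.99 in knockout samples. The parental arrays held both the highest and the lowest value, and the knockout values lay between them. The log2 difference was 0.16 (SE 0.28, 95% interval -0.48 to 0.81, limma adjusted p = 0.907). It was 0.53 (adjusted p = 0.375) without parental replicate 2 and -0.10 (adjusted p = 0.962) without parental replicate 3, so single arrays decided its size and sign. The within-group standard deviation of 0.48 for Foxa2 stood at percentile 99.2 of all probe sets above background. Those of Sox17 stood at percentile 97.5 (1421657_a_at) and 99.1 (1429177_x_at), set against the same probe sets.

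Other genes of the definitive endoderm list varied over the same arrays. Prdm1, a zinc finger repressor, read 5.53, 6.51 and 5.62 in parental and 5.07, 5.06 and 6.10 in knockout samples. Cyp26a1, which degrades retinoic acid, read 6.03, 6.75 and 4.73 against 5.36, 4.33 and 5.95. Parental replicate 2 and knockout replicate 3 had the highest value of their group for Sox17, Foxa2, Prdm1 and Cyp26a1. The mean of the 11 measured definitive endoderm genes was 4.78, 5.14 and 4.54 in parental and 4.50, 4.49 and 4.79 in knockout samples, with the same arrays highest in their group. Over all probe sets above background, the deviations of parental replicate 2 and knockout replicate 3 from their group means correlated at 0.504. The same correlation was 0.495 for parental replicate 3 with knockout replicate 2 and 0.172 for replicate 1 of each group. The remaining pairs lay between -0.463 and 0.036. Deviations within a group cancel out, so these correlations are not independent of each other. For the pairs with the highest values, deviations were thus alike over probe sets beyond the endoderm genes. The part of such shared deviations in the values of Foxa2 and Sox17 was not tested. The keratin gene Krt8, of simple epithelia such as the endoderm, read 7.23, 7.10 and 5.65 in parental and 6.71, 6.30 and 6.96 in knockout samples, lowest in parental replicate 3 as Foxa2 and 1429177_x_at of Sox17 were.

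**Figure D2:**
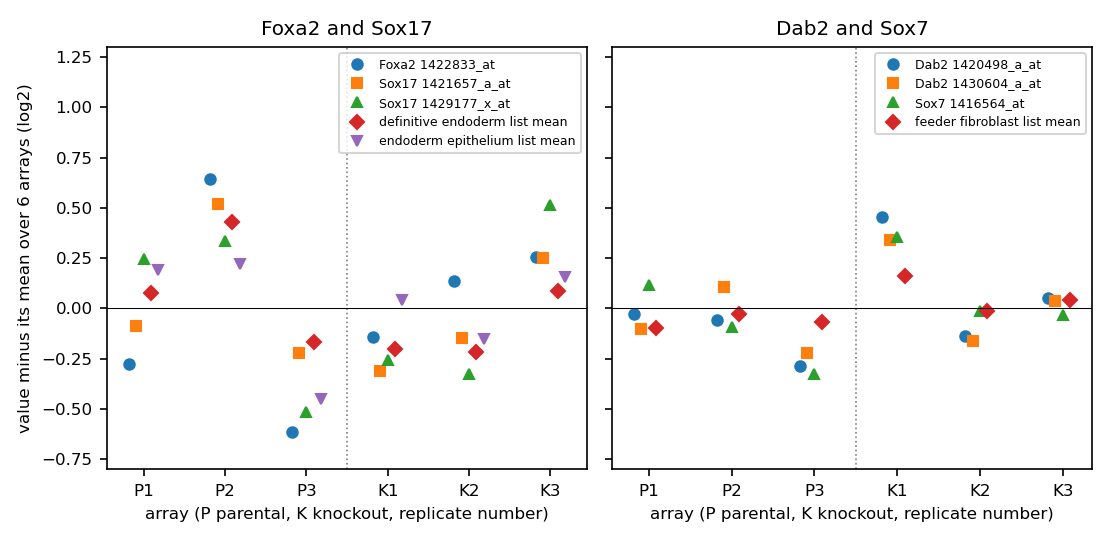
Value minus its mean over the 6 arrays (log2, vertical axis) by array, for Foxa2, both Sox17 probe sets and the means of the definitive endoderm and endoderm epithelium lists (left), and for 2 probe sets of Dab2, 1 of Sox7 and the feeder fibroblast marker mean (right). On the left, P2 is above 0 for every series and P3 below it; on the right, the highest point of every series is K1.

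Dab2, an endocytic adaptor that the primitive endoderm needs to become an ordered epithelium, was the member measured most clearly. On 1420498_a_at it read 7.86, 7.83 and 7.60 in parental and 8.34, 7.75 and 7.94 in knockout samples. Knockout replicate 1 was highest and knockout replicate 2 lay below 2 parental arrays, so the groups overlapped. The log2 difference was 0.25 (SE 0.15, 95% interval -0.09 to 0.59, limma adjusted p = 0.682), and 0.08 without knockout replicate 1. Probe set 1430604_a_at differed by 0.14 (5.56, 5.77 and 5.44 against 6.0, 5.50 and 5.70), 1423805_at by -0.02, and 1429693_at, not above background, by 0.12. Dab2 is also known from fibroblasts and macrophages, and knockout replicate 1 had the highest feeder marker mean as well. With that mean as a covariate, which is confounded with group, the differences became -0.13 on 1420498_a_at (adjusted p = 0.926) and -0.23 on 1430604_a_at (adjusted p = 0.804). On 1423805_at, highest in parental replicate 3, the difference became -0.14, and on 1429693_at it became 0.25. Of 6 macrophage markers 4 were above background and 0 passed (limma; also 0 by unadjusted p under 0.05), with Lyz2 at 0.34 and Cd68 at 0.19, and their mean ranged from 4.97 to 5.25 in parental and from 5.16 to 5.29 in knockout samples. The part of feeder and macrophage RNA in the level of Dab2 was not tested. Amn, the membrane anchor that pairs with cubilin in the apical uptake receptor of visceral endoderm, read 3.97, 3.36 and 3.65 in parental and 3.56, 3.46 and 3.16 in knockout samples. Only parental replicate 1 exceeded the background level, and the difference of -0.27 did not pass (SE 0.16, adjusted p = 0.684). It was -0.11 without parental replicate 1, -0.15 without knockout replicate 3 and -0.42 without parental replicate 2.

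Hnf4a, whose upstream promoter window is printed above, was above background on 1427001_s_at and 1450447_at. The latter read 5.26, 5.30 and 5.50 in parental and 5.24, 5.55 and 5.28 in knockout samples. The values were interleaved, with a log2 difference of 0.00 (SE 0.11, 95% interval -0.24 to 0.25, limma adjusted p = 0.992). On 1427001_s_at Hnf4a read 5.12, 5.12 and 5.0 against 4.90, 5.23 and 5.29, a difference of 0.06 (SE 0.11, adjusted p = 0.917). The probe set 1421983_s_at was the single member whose groups did not overlap, with 3.17, 3.08 and 3.30 against 3.34, 3.56 and 3.36. All 6 of these values were below background, and the difference of 0.24 did not pass (SE 0.09, unadjusted p = 0.0347, adjusted p = 0.483). The fourth probe set, 1427000_at, was not above background either and differed by 0.11.

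Afp, the fetal serum protein made by visceral endoderm and fetal liver, was at or below background. The one probe set with a group mean above the level, 1436880_at, read 3.69, 3.82 and 4.02 in parental and 3.85, 3.75 and 3.73 in knockout samples. 3 of 6 arrays were above the level, and the groups overlapped (difference -0.07, SE 0.10, adjusted p = 0.888). The other 4 Afp probe sets were below background on every array, at 2.47 to 3.53, with differences of -0.09 to 0.12. The hepatocyte marker Alb, at 3.58 over all arrays, was also below background. Of the 11 measured hepatocyte genes, 5 were above background, with Cebpa highest at 4.20 over all arrays, and 0 passed.

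**Figure D3:**
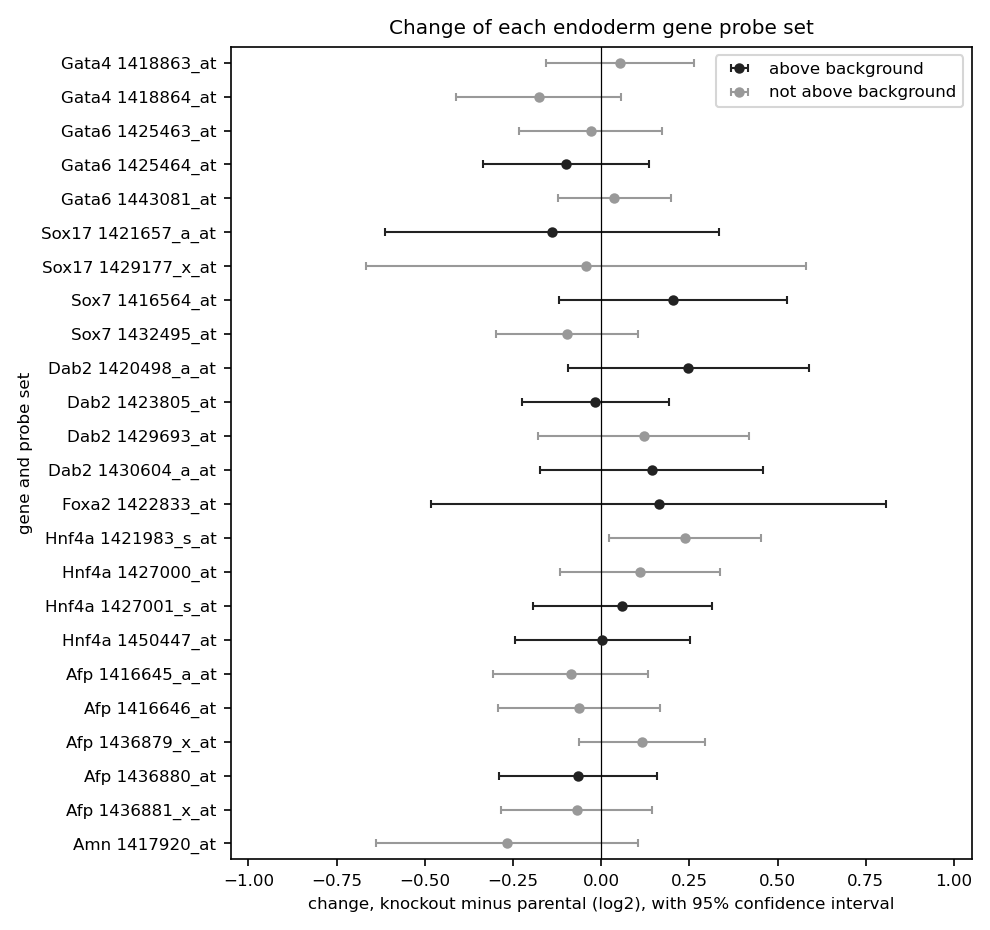
Log2 difference, knockout minus parental (horizontal axis), of each endoderm gene probe set with its 95% confidence interval from limma; black marks probe sets above background and grey the others. The interval covers 0 for all except 1421983_s_at of Hnf4a, which was below background, and it is widest for Foxa2 and Sox17.

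The wider endoderm programme was read from 6 further lists with 72 measured genes, 1 probe set a gene. Of these, 1 fell and none rose, where 0.605% of all 18193 genes passed and 0.511% fell. Their median difference was -0.04 against 0 for all genes. By list, the median was -0.14 for visceral endoderm, -0.17 for definitive endoderm and -0.04 for hepatocyte genes. These medians include genes not above background: 12 of 16, 7 of 11 and 5 of 11 genes of these lists were above it. It was 0.06 for primitive endoderm signalling, 0.06 for parietal endoderm and 0.005 for endoderm epithelium. The gene that fell was Rhox5, an X-linked homeobox gene of extraembryonic and reproductive tissues. It is counted here by its place on the visceral endoderm list, and whether its RNA came from endoderm-like cells was not tested. It read 8.56, 8.27 and 8.08 in parental and 6.75, 6.83 and 6.48 in knockout samples, with no overlap (log2 change -1.62, SE 0.14, limma adjusted p = 0.00246). With the feeder marker mean as a covariate, which is confounded with group, its change was -1.54 (limma adjusted p = 0.170). The other 15 measured visceral endoderm genes did not pass. At an unadjusted p under 0.05 (limma) there were 4 of the 16, against 9.49% of all probe sets. That share covers every probe set, also those not above background, whereas the lists hold only the most abundant probe set of each gene. The 4 were Rhox5, Hhex and the endocytic receptor gene Lrp2, lower, and Apoe, higher in knockout cells. Lrp2 read 5.01, 4.65 and 5.38 in parental and 4.39, 4.81 and 3.84 in knockout samples, with overlap (-0.67, SE 0.25, adjusted p = 0.456). Apoe read 10.16 to 10.62 over the 6 arrays (difference 0.25, adjusted p = 0.434), the homeobox gene Hhex 5.30, 5.15 and 5.0 against 4.65, 4.79 and 4.77 (-0.41, adjusted p = 0.177), and the serum carrier Ttr differed by -0.05. The Amn partner Cubn was not above background and differed by -0.21.

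The remaining endoderm lists held no gene that passed (limma). At an unadjusted p under 0.05 there were 2 of 11 in the signalling list, 1 of 15 in the parietal and 1 of 11 in the definitive list. There were 2 of 8 in the epithelial and 1 of 11 in the hepatocyte list. Over all probe sets, including those not above background, the share at this threshold was 9.49%. In the list of primitive endoderm signalling, 0 of 11 passed: Pdgfra, the receptor that marks the lineage and is also a fibroblast gene, differed by 0.21, the ligand Fgf4 by -0.07 and the ERK phosphatase Dusp6 by 0.34. Bmp4 differed by 0.51 (adjusted p = 0.0793) and passed with an intensity trend and a robust prior (adjusted p = 0.0239). Of 15 parietal endoderm and basement membrane genes 0 passed, and the most abundant, Sparc, Lamb1, Nid1 and Thbd, differed by 0.06, 0.06, 0.10 and 0.17. In the definitive endoderm list 0 of 11 passed, with Otx2 at -0.36, Eomes at 0.22, Prdm1 at -0.48 and Cyp26a1 at -0.62. In the epithelial list 0 of 8 passed, with Epcam at 0.01, Cldn6 at 0.31, Krt8 at -0.00 and Cldn7 at 0.49. The hepatocyte genes with the highest values, Cebpa, Ahsg, Tat and Apoh, differed by 0.06, -0.00, 0.11 and 0.06.

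Gata4 and Gata6 also act in the heart, and Sox7 and Sox17 in endothelium, so markers of those tissues were read beside them. In the endothelial list 1 of 9 measured genes fell, the angiopoietin receptor gene Tek, which read 6.18, 5.92 and 5.84 in parental and 4.72, 4.39 and 4.15 in knockout samples (log2 change -1.56, SE 0.15, limma adjusted p = 0.00469). In the cardiac list 1 of 8 fell, the myosin gene Myh6 (-0.73, SE 0.10, adjusted p = 0.0211), whose other probe set was not above background and differed by -0.05. The call of Myh6 was lost when parental replicate 2 (adjusted p = 0.0732) or 3 (0.0969) or knockout replicate 1 (0.105), 2 (0.0699) or 3 (0.115) was left out, and with the replicate block (0.0921). Its change stayed between -0.83 and -0.66 in the fits without 1 array. With the feeder covariate, which is confounded with group, the change was -1.76 for Tek (limma adjusted p = 0.101) and -0.81 for Myh6 (adjusted p = 0.356). Neither call was kept, and the part of feeder RNA in these changes was not tested. None of the 20 feeder markers or 12 pluripotency markers passed (limma). At an unadjusted p under 0.05 there were 2 in each list, against 9.49% of all probe sets, including those not above background. The most abundant feeder genes Col1a2 and Col3a1 differed by 0.10 and 0.18, and the pluripotency genes Dppa5a and Pou5f1 by 0.08 and -0.06. Nanog, which represses Gata6 in the epiblast, read 10.97, 10.96 and 10.76 in parental and 10.47, 10.25 and 10.51 in knockout samples, with no overlap (-0.49, SE 0.10, adjusted p = 0.122), and it passed with an intensity trend and a robust prior (adjusted p = 0.0266). Tfcp2l1 (-0.32, adjusted p = 0.391) and Esrrb (-0.18, adjusted p = 0.543) did not overlap between the groups either. Of the other pluripotency markers, Pou5f1 (-0.06) and Sox2 (-0.08) were lower and Dppa5a (0.08) was higher without overlap, and the rest overlapped. Over all probe sets, including those not above background, the groups did not overlap for 14.2%.

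The genes most like Dab2 and Hnf4a, the members with the highest means, were ranked by Pearson correlation over the 6 arrays among 13377 genes above background. For Dab2 they were Vezf1 (r = 0.998), Sting1 (0.995) and Frmd8 (0.992), all highest in knockout replicate 1 and lowest in parental replicate 3. For Hnf4a they were Atg14 (0.992), Zfp292 (0.991) and Gm4432 (0.987), all highest in knockout replicate 2. For Foxa2, added after its values were seen, they were Irx3 (0.989), Pard3 (0.988) and Hipk1 (0.987). With so few arrays and so many genes, values this high describe the ranking of arrays and nothing further.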

How the data were processed

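Biotin-labelled total RNA of 6 samples was measured on Affymetrix arrays, per the labels' protocols. The authors deposited log2 values made with RMA, per the submitters' processing notes; no software, version or setting is given in the sources used here, and the log2 scale was inferred from the range of the values. Of 45101 probe sets, 64 controls were left out. Platform annotation named 1 gene for 34945 of the rest, and symbols were updated through RefSeq (GRCm38.p6).

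Knockout and parental arrays were compared two-sided with lmFit and eBayes of limma 3.58.1 (R 4.3.3), without covariates, with Benjamini-Hochberg adjustment over 45037 probe sets, a threshold of 0.05 and 95% intervals. With 3 arrays against 3, an exact permutation test cannot give a p below 0.1. Lists used 1 probe set a gene, the one with the highest mean. The 9 members were named on every probe set; from the other lists, genes that passed or the most abundant were named (4 in endoderm lists, 2 elsewhere). Alb, Cubn, Lrp2, Nanog, Tfcp2l1, Esrrb, Sox2 and the endothelial markers other than Tek were added after their values were seen. The members and lists were chosen with earlier results of these data known. The fit was tested on simulated data. Alternatives are named in the closing section. The number of arrays limits the precision.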

Additional observations from a re-analysis of the deposited data

How the results depend on the processing

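The count of member probe sets called was 0 under every alternative run. The count over all probe sets was 181, and it became 88 with the replicate block (81 shared), 312 with an intensity trend and robust prior (180 shared), 29 with the feeder covariate (29 shared) and 70 to 112 without 1 array; quantile normalization applied again, subtracted medians and the background filter gave 179 to 193. Replicate numbers gave no pairing: deviations of same-numbered arrays correlated at 0.172, -0.463 and -0.398, and parental 2 with knockout 3 and parental 3 with knockout 2 at 0.504 and 0.495. Of the listed genes, 3 were called, against 5 with the trend (adding Bmp4 and Nanog), 0 with the feeder covariate, 2 with the block and 2 to 3 without 1 array. The block ended no other call among the named genes than that of Myh6. Member probe sets above background numbered 10, against 5 at the 99th percentile and 10 to 11 without 1 array. In 21 of 274 recomputed values, none of them called, the sign of a member turned. With the feeder covariate these were Sox7 1416564_at (-0.00401), Dab2 1420498_a_at (-0.13) and Dab2 1430604_a_at (-0.23), and with repeated quantile normalization Hnf4a 1450447_at (-0.00111). Without 1 array, the ranges that cross 0 were -0.028 to 0.11 (Gata4 1418863_at), -0.093 to 0.037 (Gata6 1425463_at), -0.30 to 0.085 (Sox17 1421657_a_at), -0.31 to 0.11 (Sox17 1429177_x_at), -0.070 to 0.053 (Dab2 1423805_at), -0.10 to 0.53 (Foxa2 1422833_at), -0.015 to 0.18 (Hnf4a 1427001_s_at), -0.093 to 0.077 (Hnf4a 1450447_at), -0.14 to 0.022 (Afp 1416646_at), -0.14 to 0.022 (Afp 1436880_at) and -0.15 to 0.00333 (Afp 1436881_x_at). The cause was not tested. Signal near the background level limits what can be said of all members other than Dab2 and Hnf4a.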
